A study of Mus musculus with 24 samples.

Results

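The Ifit genes, which encode the interferon-induced proteins with tetratricopeptide repeats, were followed in 24 mRNA-seq libraries of cultured mouse cells labelled as liver endothelial cells. The members were the protein-coding genes of the count table named Ifit1, Ifit2, Ifit3 and Ifit3b. They were chosen by name and are 4 of the 56748 genes of the table. All 4 passed the filter on low counts in every comparison.

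The cells, of C57BL/6 mice, are named by the authors Cd31+ liver endothelial cells and Cd146+ liver sinusoidal endothelial cells. Both populations were compared, each with 4 lentiviral constructs and 3 libraries for each of the 8 groups. According to the methods, the cells came from 3-month-old female animals, were isolated with antibody-coupled magnetic beads, cultured, transduced, and lysed for RNA 1 week later. P16 shRNA is a pLKO.1 vector with a small hairpin directed against P16Ink4a, and nc shRNA, its control, is the same vector with a non-coding hairpin. P16 is a vector that expresses P16Ink4a fused to GFP from a cDNA, and empty vector, its control, is the same vector without the cDNA. All groups therefore carried a lentiviral vector, and an untransduced culture was not analysed here. The sources used here do not give the promoters of the vectors, the share of transduced cells, or which mouse gave which culture, so that the p-values below measure the spread between libraries.

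Ifit genes are classical interferon-stimulated genes. Interferons of types I and III bind receptors that activate the kinases Jak1 and Tyk2, and these phosphorylate STAT proteins, which join Irf9 to form the factor ISGF3. ISGF3 binds the interferon-stimulated response element near the start of its target genes, and the products include the Ifit proteins, which lie in the cytoplasm and bind RNA or each other. Ifit1 binds the 5′ end of RNAs whose cap lacks 2′-O-methylation and keeps them from being translated. Ifit2 restricts several RNA viruses and has been linked to apoptosis. Ifit3 acts as a partner of other family members, and Ifit3b is a mouse copy of Ifit3.

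The 4 genes lie in a cluster on the plus strand of chromosome 19, with the minus-strand genes Ifit1bl1 and Ifit1bl2 in between. In the coordinates of the count table, Ifit2 runs from 34528094 to 34553819, Ifit3 from 34560931 to 34566131, Ifit3b from 34585370 to 34590801 and Ifit1 from 34618271 to 34627409. The submitters' notes name the mouse build mm9. In GENCODE M21, an annotation of GRCm38, each of the 4 starts lies 22600 bases further on. The sequences below use RefSeq starts of GRCm38, which differ from those of GENCODE by some bases in Ifit1, Ifit3 and Ifit3b. Of 52073 genes found in both the count table and GENCODE, 1485 had the same start. No annotation of mm9 was used here, so that the build of the table's coordinates was not checked and remains in doubt. Positions of the count table and of GRCm38 are not mixed below.

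The 250 bases before the annotated starts are shown because 3 of the 4 members share a motif there. The sequences are from RefSeq (GRCm38.p6, plus strand), and capitals mark TTTCNNTTTC, the reverse complement of GAAANNGAAA, which is the core of the interferon-stimulated response element. Both strands were searched. Ifit1 (chr19:34640639-34640888), Ifit3 (chr19:34583279-34583528), Ifit3b (chr19:34607707-34607956) and the 2 annotated starts of Ifit2 (chr19:34550444-34550693 and chr19:34550838-34551087) read as follows.
Ifit1: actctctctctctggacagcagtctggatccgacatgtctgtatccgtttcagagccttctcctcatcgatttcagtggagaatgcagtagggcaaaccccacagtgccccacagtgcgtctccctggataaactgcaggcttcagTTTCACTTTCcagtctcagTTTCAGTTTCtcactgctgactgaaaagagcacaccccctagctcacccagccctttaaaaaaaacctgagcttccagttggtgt
Ifit3: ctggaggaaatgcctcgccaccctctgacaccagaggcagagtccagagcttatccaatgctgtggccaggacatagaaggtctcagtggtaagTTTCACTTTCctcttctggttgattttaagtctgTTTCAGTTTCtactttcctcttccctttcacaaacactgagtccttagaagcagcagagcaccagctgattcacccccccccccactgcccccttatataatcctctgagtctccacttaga
Ifit3b: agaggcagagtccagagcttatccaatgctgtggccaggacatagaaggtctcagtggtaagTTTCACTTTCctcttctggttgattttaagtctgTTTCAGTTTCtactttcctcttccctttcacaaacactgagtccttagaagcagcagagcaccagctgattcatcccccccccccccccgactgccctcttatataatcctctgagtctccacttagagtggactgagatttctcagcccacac
Ifit2, first start: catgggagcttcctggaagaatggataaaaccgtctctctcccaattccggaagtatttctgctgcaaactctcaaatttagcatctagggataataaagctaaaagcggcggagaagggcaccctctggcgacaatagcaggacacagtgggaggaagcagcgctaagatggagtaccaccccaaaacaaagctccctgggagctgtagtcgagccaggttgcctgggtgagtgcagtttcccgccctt
Ifit2, second start: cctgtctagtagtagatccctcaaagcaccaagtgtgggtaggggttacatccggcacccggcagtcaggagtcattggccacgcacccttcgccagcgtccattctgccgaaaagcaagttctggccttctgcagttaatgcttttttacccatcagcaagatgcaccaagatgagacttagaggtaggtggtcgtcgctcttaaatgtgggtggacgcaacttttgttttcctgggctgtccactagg

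The windows of Ifit1, Ifit3 and Ifit3b each held the motif at 2 places, in the same order, TTTCACTTTC followed by TTTCAGTTTC. The first began 104 bases before the start in Ifit1, 156 in Ifit3 and 188 in Ifit3b, and the second 85, 122 and 154 bases before it. Neither window of Ifit2 held these letters. Of all 32851 mouse windows of this length, 2.98% held the motif, and counted by gene it was 3.46% of 27025 genes. The motif was also found in 10 of 19 interferon ligand genes with a window (52.6%) and in 6 of 15 other antiviral effector genes (40%). It was found in 0 of 7 sensor genes and 0 of 5 receptor genes. Both remaining genes of the cluster, Ifit1bl1 and Ifit1bl2, held it as well. The windows of Ifit1bl2 and Ifit1 overlap on opposite strands, and their matches are the same bases, so that Ifit1bl2 is not a separate case. The windows of Ifit3 and Ifit3b read the same letters around and between their matches, so that these copies are not 2 separate cases either. A match is a string of letters and was not tested as a binding site.

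Ifit3 and Ifit3b are close copies. Over 1697 aligned bases their annotated transcripts were 98.0% identical, and 51.2% of the 50-base words and 18.5% of the 150-base words of Ifit3 were also present in Ifit3b. How the authors' counting treated reads that match both genes is not given in the sources used here, so the split between the pair is uncertain and their values may share reads. The other pairs of members were 60.0 to 63.8% identical and shared no 50-base word.

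Library totals in the count table ran from 15409767 to 26470392 (median 20329205). Libraries are named by group and by the replicate number of their label, and a level is given in CPM, the count relative to the TMM-scaled size of the library. A count of 3 corresponded to 0.113 to 0.195 CPM, and the lowest count of any member was 11. Cdkn2a, the gene of P16Ink4a, whose row also takes reads from p19Arf and from the construct, stood at 36.2 to 76.0 CPM with nc shRNA and 5.13 to 9.22 CPM with P16 shRNA in Cd31+ cells, and at 94.6 to 196 and 7.80 to 25.7 CPM in Cd146+ cells. With P16 it reached 137 to 330 CPM in Cd31+ and 228 to 834 CPM in Cd146+ cells, above all empty vector libraries of the same population (32.5 to 104 CPM).

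The cell type markers did not describe all libraries alike. The summed level of 14 endothelial markers, among them Pecam1 (Cd31), Mcam (Cd146) and Cdh5, lay between 256 and 2050 CPM in 21 libraries. It was 56.4, 29.7 and 44.8 CPM in the Cd146+ libraries numbered 3 with nc shRNA, P16 shRNA and P16, where Mcam stood at 11.6, 3.22 and 10.5 CPM. Of the markers of sinusoidal endothelium in the list, Stab1, which macrophages also express, had a mean of 96.0 CPM over the 24 libraries, while Lyve1, Stab2 and Clec4g had 1.91, 0.440 and 0.0194 CPM. Summed hepatocyte markers reached at most 2.66 CPM and lymphoid markers 0.79 CPM. The summed mesenchymal markers, mainly collagens, reached 6530 to 50575 CPM. The sum of 12 macrophage markers lay between 8.85 and 188 CPM. Fitted differences of the Ifit genes that include a Cd146+ library numbered 3 are therefore also given without it. So are the counts of the gene lists for P16 shRNA against nc shRNA. The same holds for the values of the genes named from them as higher or lower in Cd146+ cells. In 16 libraries Y-linked transcripts were counted (2353 to 6116 reads) and Xist was nearly absent, whereas the other 8 had 0 to 4 Y-linked reads and 6698 to 17948 Xist reads. This does not match the female animals of the methods, and it split the groups unevenly. In Cd31+ cells only the empty vector and P16 libraries numbered 5 had 0 Y-linked reads, with 17948 and 11646 Xist reads. These 2 libraries also had the highest endothelial sums of the Cd31+ cells (1403 and 1753 CPM).

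**Figure D1:**
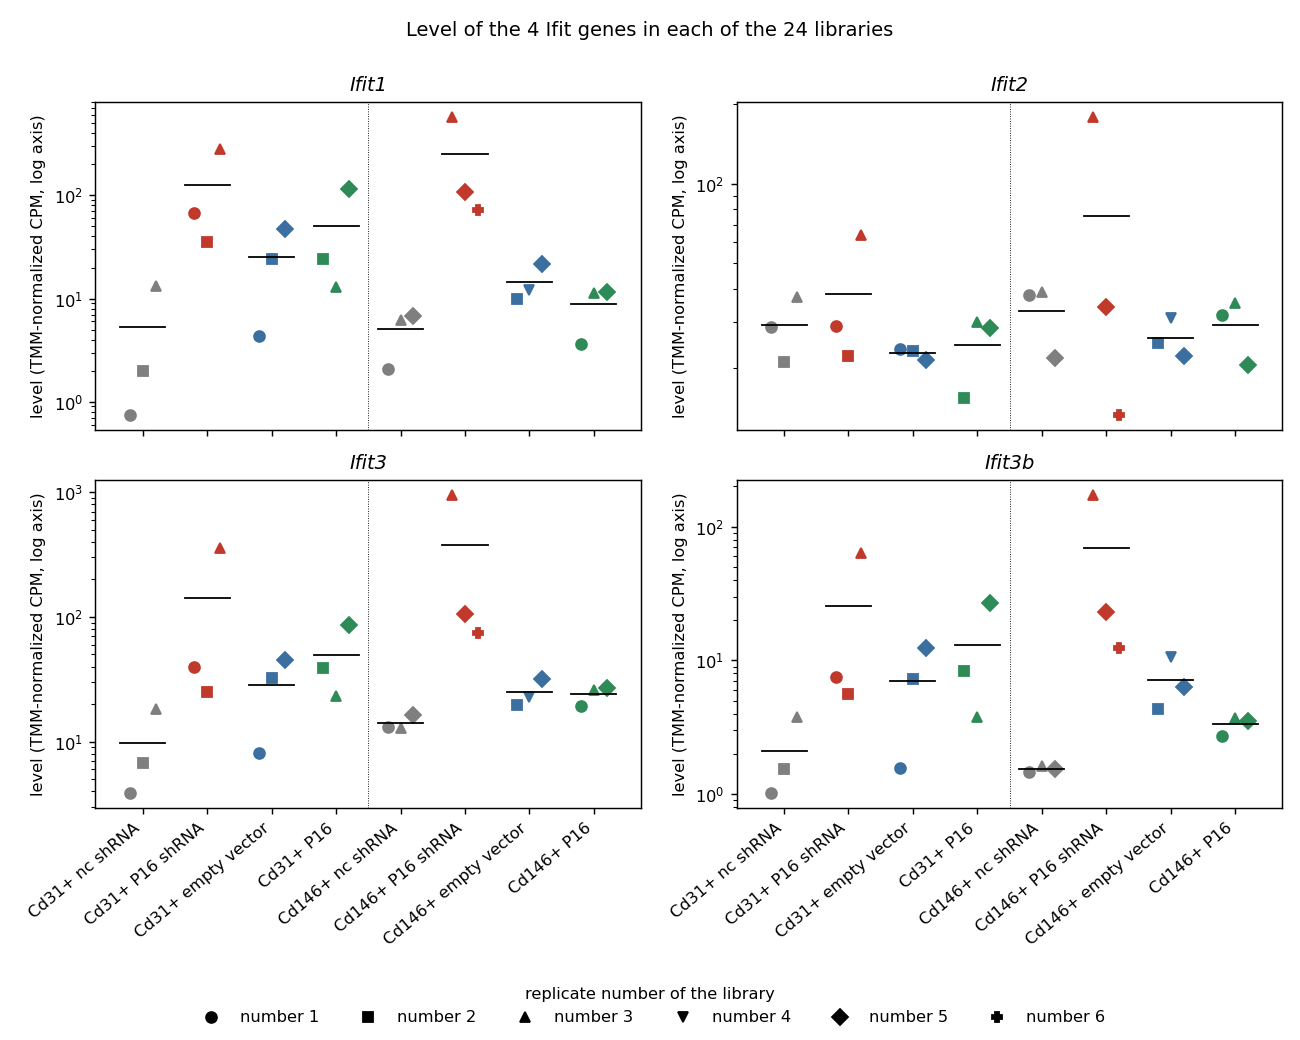
Level of Ifit1, Ifit2, Ifit3 and Ifit3b in each of the 24 libraries (TMM-normalized CPM, log axis), by population and construct. Each symbol is 1 library, its shape gives the replicate number, and the horizontal line is the group mean. For Ifit1, Ifit3 and Ifit3b, all P16 shRNA libraries lie above all nc shRNA libraries of their population, whereas for Ifit2 the groups overlap.

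With P16 shRNA, Ifit1, Ifit3 and Ifit3b were higher than with nc shRNA in every library of both populations, by 12.1 to 50.4 times as a ratio of group means, while Ifit2 overlapped between the groups. The P16 shRNA library numbered 3 held the highest value of each of the 4 genes in both populations. In Cd146+ cells this library was among those with low endothelial markers. Without both Cd146+ libraries numbered 3, the median fitted log2 fold change of the 4 genes was 3.08, against 5.11 with them. No member passed an adjusted p of 0.05 in the edgeR fit without replicate numbers, whereas some did with the numbers as a block or with DESeq2, as given below.

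Ifit1, the cap-sensing member, had 0.748, 2.00 and 13.2 CPM in the Cd31+ nc shRNA libraries 1, 2 and 3 (11, 43 and 234 reads). With P16 shRNA the libraries 1, 2 and 3 had 68.0, 35.0 and 279 CPM (1269, 621 and 5997 reads). The lowest P16 shRNA library was above the highest control, and number 3 was the highest in both groups. In Cd146+ cells nc shRNA gave 2.07, 6.22 and 6.78 CPM in libraries 1, 3 and 5, and P16 shRNA gave 578, 109 and 72.0 CPM in libraries 3, 5 and 6. Again the groups did not overlap, and the library numbered 3 held the largest value. The group means were 5.30 ± 6.83 and 127 ± 132 CPM (SD, n = 3) in Cd31+ cells, a ratio of 23.998, and 5.03 ± 2.57 and 253 ± 282 CPM in Cd146+ cells, a ratio of 50.4.

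The other constructs placed Ifit1 between these extremes. Empty vector libraries held 4.37, 23.97 and 47.4 CPM (Cd31+, numbers 1, 2 and 5) and 9.92, 12.2 and 21.8 CPM (Cd146+, numbers 2, 4 and 5). Libraries with P16 held 24.4, 13.0 and 115 CPM (Cd31+, numbers 2, 3 and 5) and 3.63, 11.2 and 11.47 CPM (Cd146+, numbers 1, 3 and 5). Both Cd31+ groups spanned a wide range with number 5 highest, and the 2 Cd146+ groups overlapped each other. The Cd31+ libraries numbered 5 are those without Y-linked reads.

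Ifit3, the partner of other members, showed the same arrangement. In Cd31+ cells, nc shRNA libraries 1, 2 and 3 had 3.88, 6.75 and 18.4 CPM and P16 shRNA libraries 1, 2 and 3 had 39.7, 25.1 and 360 CPM. In Cd146+ cells the nc shRNA libraries 1, 3 and 5 had 13.1, 12.8 and 16.4 CPM and the P16 shRNA libraries 3, 5 and 6 had 954, 106 and 73.9 CPM. The controls were close together in Cd146+ cells and spread in Cd31+ cells, and neither population showed an overlap with P16 shRNA. Group means differed 14.6 times in Cd31+ cells (9.69 ± 7.71 and 142 ± 189 CPM) and 26.8 times in Cd146+ cells (14.1 ± 2.01 and 378 ± 499 CPM). With empty vector, Ifit3 had 8.09, 32.2 and 45.1 CPM in Cd31+ and 19.6, 22.9 and 31.8 CPM in Cd146+ cells, and with P16 it had 38.6, 23.4 and 86.1 CPM and 19.2, 25.9 and 26.8 CPM.

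Ifit3b, the copy of Ifit3, followed it. In Cd31+ cells it had 1.02, 1.54 and 3.77 CPM with nc shRNA and 7.45, 5.63 and 63.3 CPM with P16 shRNA, in libraries 1, 2 and 3 of each group. The Cd146+ nc shRNA libraries 1, 3 and 5 had 1.47, 1.63 and 1.55 CPM, and the P16 shRNA libraries 3, 5 and 6 had 173, 23.2 and 12.4 CPM. Groups were again apart, by 12.1 times in the mean in Cd31+ cells and 44.8 times in Cd146+ cells, where the controls were close together (1.55 ± 0.077 CPM). Empty vector gave 1.58, 7.23 and 12.3 CPM in Cd31+ and 4.30, 10.7 and 6.29 CPM in Cd146+ cells, and P16 gave 8.29, 3.75 and 26.8 CPM and 2.73, 3.70 and 3.55 CPM.

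Ifit2 differed from the other members. In Cd31+ cells it stood at 28.7, 21.2 and 37.3 CPM with nc shRNA and 29.0, 22.2 and 63.8 CPM with P16 shRNA, libraries 1, 2 and 3 of each. In Cd146+ cells the values were 37.8, 39.0 and 21.8 CPM with nc shRNA (1, 3 and 5) and 179, 34.0 and 13.3 CPM with P16 shRNA (3, 5 and 6). The number 3 libraries with P16 shRNA held the highest Ifit2 values of all 24, and the other P16 shRNA libraries lay within or below the range of the controls. The lowest value among P16 shRNA libraries, 13.3 CPM, was also the lowest of any library. With empty vector, Ifit2 was narrow, at 23.7, 23.2 and 21.4 CPM in Cd31+ and 24.9, 31.0 and 22.3 CPM in Cd146+ cells, and with P16 it was 15.5, 29.8 and 28.5 CPM and 31.7, 35.2 and 20.6 CPM.

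The order of the 8 group means was the same for Ifit1 and Ifit3 in its upper places. P16 shRNA in Cd146+ cells stood first for all 4 genes and P16 shRNA in Cd31+ cells second. P16 and then empty vector in Cd31+ cells followed for Ifit1 and Ifit3, and an nc shRNA group stood last for Ifit1, Ifit3 and Ifit3b. Neighbours in this order overlapped between libraries for every gene, with the exception of Ifit3 between P16 and nc shRNA in Cd146+ cells (23.97 ± 4.12 and 14.1 ± 2.01 CPM). For Ifit2 the last place was held by empty vector in Cd31+ cells (22.8 ± 1.19 CPM). The SD of both P16 shRNA groups was larger than their mean for Ifit1, Ifit3 and Ifit3b.

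The fitted difference between P16 shRNA and nc shRNA in Cd31+ cells was 4.59 ± 1.28 (log2 fold change ± SE) for Ifit1, 3.88 ± 1.25 for Ifit3, 3.60 ± 1.14 for Ifit3b and 0.41 ± 0.43 for Ifit2. In the edgeR quasi-likelihood test their adjusted p-values were 0.137, 0.173, 0.170 and 0.651, so that 0 of 4 members were called, beside 1.3% of all 14358 genes tested. At an unadjusted p under 0.05, Ifit1 (0.0113), Ifit3 (0.0204) and Ifit3b (0.0195) were counted, 3 of 4, beside 19.8% of all genes (9.51% higher and 10.3% lower). The median of the members was 3.74 and that of all genes 0.00342. In 3 of the 4 members the groups did not overlap, beside 27.4% of all genes, and the exact permutation test gave p = 0.1 for each (two-sided), the smallest value 3 against 3 libraries allow. For Ifit2 it gave 0.6.

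Libraries with the same number varied together within a population, and with the number as a block in the 6 libraries, Ifit1 (4.70 ± 0.37), Ifit3 (3.27 ± 0.58) and Ifit3b (3.17 ± 0.43) passed the adjusted threshold in Cd31+ cells (edgeR, adjusted p = 0.00189, 0.0380 and 0.00634). The block called 18.8% of all genes. With the block in all 12 Cd31+ libraries, Ifit1 alone was called (4.76, adjusted p = 0.0394), beside 16.8% of genes. DESeq2's Wald test without a block called Ifit1 (4.58, adjusted p = 0.0134) and Ifit3 (3.86, 0.0324), beside 6.21% of genes, and gave no p-value for Ifit3b. Without the P16 shRNA library 3, the differences were 3.28 for Ifit1, 1.74 for Ifit3, 1.63 for Ifit3b and -0.18 for Ifit2. Without the nc shRNA library 3, which had the highest control values, Ifit1 stood at 6.47, and 0 members were called in either of these fits. Over all alternatives, leave-one-out fits included, the edgeR or DESeq2 adjusted p-values ran from 0.00189 to 0.413 (Ifit1), 0.0324 to 0.508 (Ifit3) and 0.00634 to 0.498 (Ifit3b).

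For Cd146+ cells the fit gave 5.65 ± 1.03 for Ifit1, 4.74 ± 1.10 for Ifit3, 5.47 ± 1.13 for Ifit3b and 1.19 ± 0.89 for Ifit2. In the edgeR test 0 of 4 members were called at an adjusted p under 0.05 (0.382 for the first 3 and 0.592 for Ifit2), as were 0% of the 15124 genes tested. At an unadjusted p under 0.05, Ifit1 (0.00122), Ifit3 (0.00419) and Ifit3b (0.00236) were counted, 3 of 4, beside 11.6% of all genes (5.44% higher and 6.18% lower). The median of the members was 5.11 and that of all genes 0.0255. Groups did not overlap for 3 of 4 members (exact permutation p = 0.1), beside 20.5% of all genes, and overlapped for Ifit2 (p = 0.9).

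With the number as a block in the 6 Cd146+ libraries, of which 2 pairs share a number, 0 of 4 members and 0% of genes were called. In all 12 Cd146+ libraries the block called Ifit1 (5.43, edgeR adjusted p = 0.0457) and Ifit3b (5.52, 0.0377), beside 8.33% of genes. DESeq2 called Ifit1 (5.63, adjusted p = 8.3e-12), Ifit3 (4.72, 5.37e-07) and Ifit3b (5.47, 3.05e-09), beside 1.16% of genes. Without the P16 shRNA library 3 the differences were 4.17, 2.67 and 3.52 for Ifit1, Ifit3 and Ifit3b and -0.47 for Ifit2. Without both libraries numbered 3, in which endothelial markers were low, they were 4.35 ± 0.61, 2.60 ± 0.30 and 3.55 ± 0.44, and -0.33 ± 0.50 for Ifit2. In that fit 3 of 4 members had an unadjusted p under 0.05, beside 9.05% of genes, and 0 were called after adjustment (0.308, 0.158 and 0.158), as were 0% of genes. With a term for Y-linked counts, which split the Cd146+ groups unevenly, the differences in 6 libraries were 5.48 (Ifit1), 4.39 (Ifit3), 5.402 (Ifit3b) and 1.24 (Ifit2), and again 0 members were called. Over all alternatives, leave-one-out fits included, the edgeR or DESeq2 adjusted p-values ran from 8.3e-12 to 0.889 (Ifit1), 5.37e-07 to 0.889 (Ifit3) and 3.05e-09 to 0.889 (Ifit3b).

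**Figure D2:**
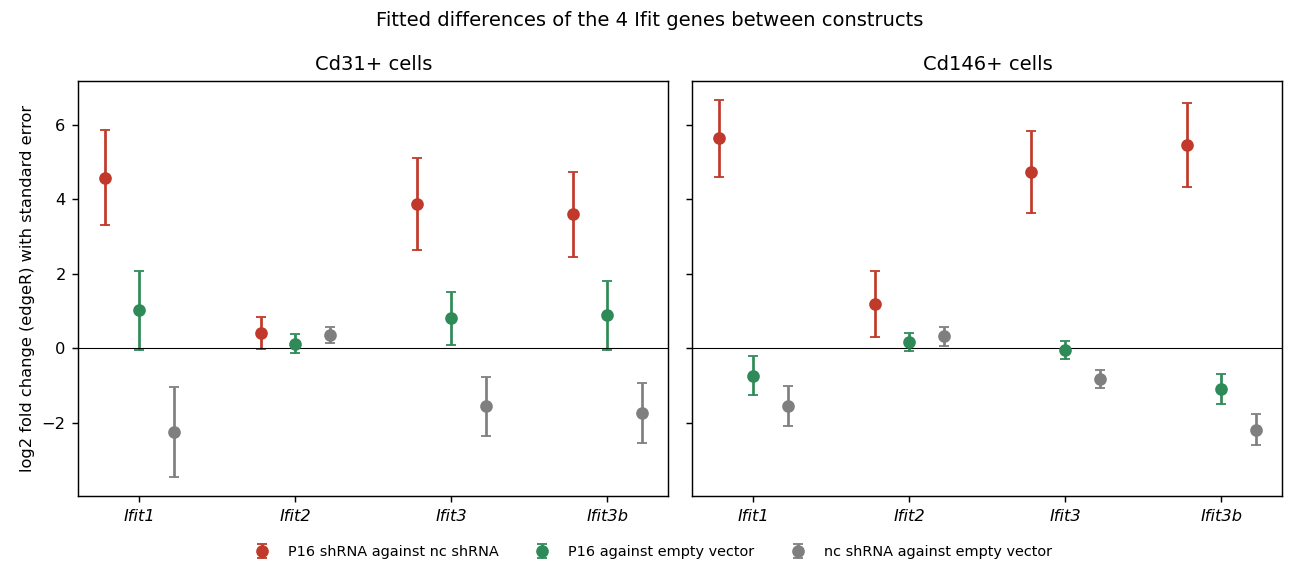
Fitted log2 fold change (edgeR) with its standard error for the 4 Ifit genes in 3 comparisons of constructs, Cd31+ cells at left and Cd146+ cells at right. P16 shRNA against nc shRNA (red) lies between 3.60 and 5.65 for Ifit1, Ifit3 and Ifit3b, and at 0.41 and 1.19 for Ifit2, whose nc shRNA against empty vector (grey) is slightly positive where that of the others is negative.

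Ratios within pairs of libraries with the same number show the size of the difference in each pair. P16 shRNA exceeded nc shRNA for Ifit1 by 90.9, 17.5 and 21.2 times in Cd31+ pairs 1, 2 and 3 and by 93.0 and 16.04 times in Cd146+ pairs 3 and 5. For Ifit3 the ratios were 10.2, 3.71 and 19.5, and 74.7 and 6.44. For Ifit3b they were 7.31, 3.67 and 16.8, and 106 and 14.96. Pair 2 had the smallest ratio of these genes among the Cd31+ pairs, and pair 3 the larger one in Cd146+ cells. Ifit2 ratios were 1.01, 1.05 and 1.71, and 4.59 and 1.56. Cdkn2a was lower by 6.30, 7.07 and 13.4 times in the Cd31+ pairs and by 16.1 and 8.39 times in the Cd146+ pairs.

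**Figure D3:**
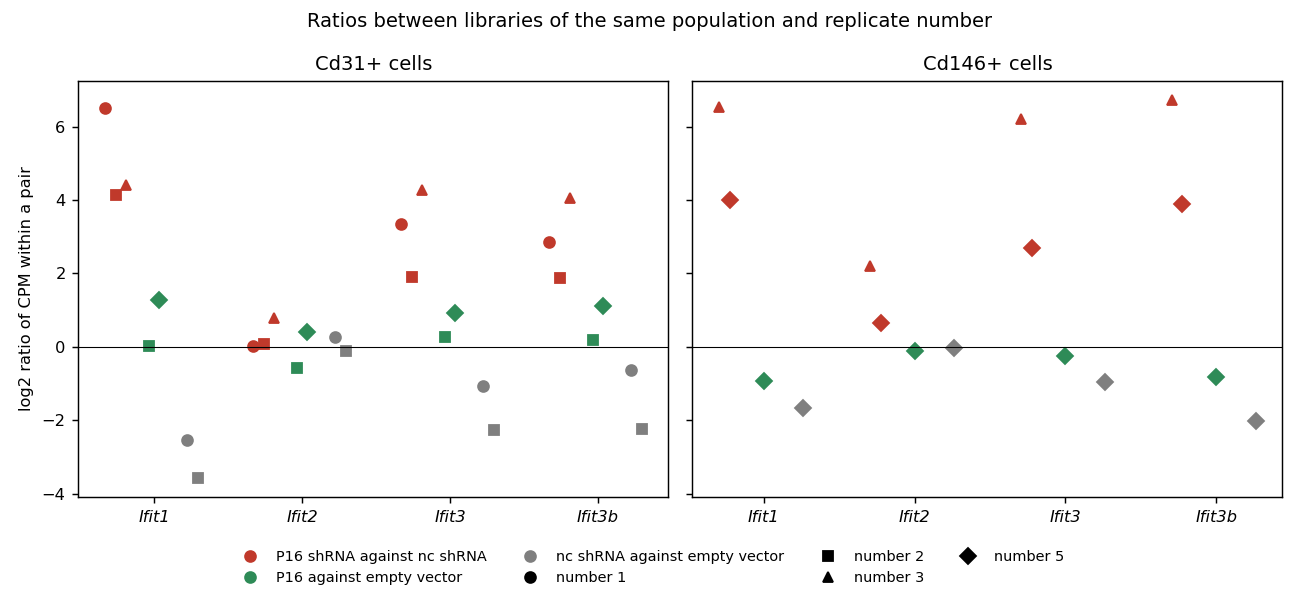
Log2 ratio of CPM between libraries of the same population and replicate number, for each Ifit gene. Colour gives the comparison and shape the number. The 5 red symbols for P16 shRNA against nc shRNA lie at 1.87 or above for Ifit1, Ifit3 and Ifit3b, and for Ifit2 between 0.02 and 2.20.

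Overexpression of P16 was not accompanied by a called difference in any Ifit gene. In Cd31+ cells the fitted differences between P16 and empty vector were 1.01 ± 1.06 (Ifit1), 0.12 ± 0.26 (Ifit2), 0.80 ± 0.72 (Ifit3) and 0.88 ± 0.93 (Ifit3b), and all groups overlapped. In the edgeR test 0 members were called after adjustment and 0 at an unadjusted p under 0.05, where 0% and 3.73% of the 14565 genes tested were. Groups did not overlap in 10.7% of all genes. With the number as a block in the 6 libraries, which share the numbers 2 and 5, the differences were 0.67 ± 0.22 (Ifit1), 0.60 ± 0.22 (Ifit3), 0.69 ± 0.26 (Ifit3b) and -0.08 ± 0.23 (Ifit2). In that fit, which has 1 residual degree of freedom, 3 of 4 members had an unadjusted p under 0.05 in the edgeR test, beside 7.98% of genes, and 0 were called (adjusted p = 0.207, 0.291 and 0.331 for these 3). In pairs 2 and 5, P16 exceeded empty vector by 1.02 and 2.42 times for Ifit1, 1.198 and 1.91 times for Ifit3 and 1.15 and 2.18 times for Ifit3b. With the block in all 12 Cd31+ libraries the values were 0.32 ± 0.96, 0.24 ± 0.86 and 0.26 ± 0.90 for Ifit1, Ifit3 and Ifit3b. Without the P16 library 5 the differences were -0.46 (Ifit1), 0.10 (Ifit3) and -0.25 (Ifit3b).

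For Cd146+ cells the fit gave -0.74 ± 0.52 (Ifit1), 0.16 ± 0.24 (Ifit2), -0.05 ± 0.24 (Ifit3) and -1.09 ± 0.40 (Ifit3b). Ifit3b had an unadjusted p of 0.0330 in the edgeR test, 1 of 4 members beside 3.53% of 14860 genes, with an adjusted p of 0.986, and 0% of genes were called after adjustment. Its P16 libraries (2.73 to 3.70 CPM) lay below its empty vector libraries (4.30 to 10.7 CPM), the only member without overlap here, beside 8.55% of all genes. Without the P16 library 3 the differences were -0.94, 0.03, -0.09 and -1.15 for Ifit1, Ifit2, Ifit3 and Ifit3b, and edgeR gave Ifit3b an unadjusted p of 0.0638 (adjusted p = 1.00). In the fit of all 12 Cd146+ libraries, 0 of 4 members had an unadjusted p under 0.05 in edgeR. Of the 15915 genes tested there, 725 did. With the number as a block in those libraries it was 0 of 4, beside 284 genes, with a member median of -1.05. With the Y-linked term in 6 libraries it was 0 of 4, beside 197 of 14860 genes, with a median of -0.22. In the fits of 6 libraries without a further term, the medians of the members were 0.84 in Cd31+ and -0.40 in Cd146+ cells. Those of all genes were 0.0135 and -0.00269.

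The 2 control groups were compared with each other to give the base level, although they differ in the vector backbone as well as in the insert. In Cd146+ cells, Ifit1, Ifit3 and Ifit3b were lower with nc shRNA than with empty vector in every library, by 2.91, 1.76 and 4.57 times in the mean, while Ifit2 overlapped. The fitted differences were -1.55 ± 0.54, -0.82 ± 0.24 and -2.20 ± 0.41, and 0.32 ± 0.25 for Ifit2. In the edgeR test 3 of 4 members had an unadjusted p under 0.05 (0.0277, 0.0137 and 0.00158), beside 3.99% of 14976 genes, and 0 of 4 passed the adjustment (0.907), as did 0% of genes. Non-overlap held for these 3 members and for 9.14% of all genes. In the fit of all 12 Cd146+ libraries 1 of 4 members had an unadjusted p under 0.05, beside 4.4% of genes. With the number as a block in those libraries it was 0 of 4, beside 2.04%, with differences of -2.20 ± 0.95 (Ifit1), -1.49 ± 1.25 (Ifit3), -2.76 ± 1.11 (Ifit3b) and -0.25 ± 0.53 (Ifit2). Without the nc shRNA library 3 the differences were -1.71, -0.74 and -2.21, and 0.20 for Ifit2. DESeq2 called Ifit3b (-2.20, adjusted p = 0.0440), the only gene it called and 0.00311% of those with an adjusted p. Over all alternatives, leave-one-out fits included, the edgeR or DESeq2 adjusted p-values ran from 0.044 to 1.00 (Ifit3b).

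In Cd31+ cells the differences between nc shRNA and empty vector were -2.26 ± 1.22 (Ifit1), 0.35 ± 0.20 (Ifit2), -1.56 ± 0.79 (Ifit3) and -1.74 ± 0.81 (Ifit3b), with all 4 groups overlapping, where 9.22% of all genes did not. In the edgeR test none of the 4 had an unadjusted p under 0.05, beside 3.16% of genes, and 0% of genes were called after adjustment. With the number as a block in the 6 libraries, which share only 2 numbers, Ifit1 (-3.29), Ifit3 (-1.76) and Ifit3b (-1.66) were called (edgeR adjusted p = 1.9e-33, 2.3e-15 and 0.000117), beside 3.07% of genes. That fit has 1 residual degree of freedom. With the Y-linked term in the 6 libraries, the median of the members was -0.99, against -1.65 without it, and 0 of 4 were called. With the block in all 12 Cd31+ libraries the differences were -1.95 ± 1.21, -1.60 ± 1.01 and -1.40 ± 1.15, and 0 of 4 members were called (edgeR, beside 0.13% of genes) or had an unadjusted p under 0.05 (beside 10.4%). Without the nc shRNA library 3, Ifit1 was at -4.17, Ifit3 at -2.42 and Ifit3b at -2.46, and 3 of 4 members had an unadjusted p under 0.05 in the edgeR test, beside 2.96% of genes, with 0 called. Over all alternatives, leave-one-out fits included, the edgeR or DESeq2 adjusted p-values ran from 1.9e-33 to 1.00 (Ifit1), 2.3e-15 to 1.00 (Ifit3) and 0.000117 to 1.00 (Ifit3b).

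Since nc shRNA stood low, the P16 shRNA libraries were also set beside empty vector. In Cd146+ cells the lowest P16 shRNA library was above the highest empty vector library for Ifit1 (72.0 against 21.8 CPM), Ifit3 (73.9 against 31.8 CPM) and, narrowly, Ifit3b (12.4 against 10.7 CPM). Ratios of the means were 17.3, 15.2 and 9.80. Of the 16524 genes tested in the fit of all libraries, 19.5% did not overlap between these groups. In Cd31+ cells all 4 genes overlapped, where 22.1% of genes did not, with 35.0 CPM as the lowest P16 shRNA value of Ifit1 and 47.4 CPM as the highest empty vector value, and ratios of 5.04 (Ifit1), 4.98 (Ifit3) and 3.62 (Ifit3b). These are levels set side by side, and no model was fitted to this pair of groups.

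The make-up of the family was taken from the authors' FPKM, which are per length of the gene. With nc shRNA the 4 genes summed to 15.7 ± 9.24 FPKM in Cd31+ cells, of which Ifit2 held 52.1 ± 17.8%, Ifit3 32.2 ± 9.41%, Ifit1 9.37 ± 8.11% and Ifit3b 6.35 ± 1.22% (SD, n = 3). With P16 shRNA they summed to 149 ± 177 FPKM, of which Ifit3 held 45.2 ± 10.6%, Ifit1 36.3 ± 6.93%, Ifit2 10.9 ± 5.76% and Ifit3b 7.63 ± 1.29%. Ifit2 thus went from the largest share to a small one, with libraries of 35.3 to 70.8% and of 4.52 to 15.7%. In Cd146+ cells the sum was 18.9 ± 0.92 FPKM with nc shRNA and 356 ± 443 FPKM with P16 shRNA. There the share of Ifit2 was 43.5 ± 11.502% and 5.50 ± 1.45%, that of Ifit1 9.88 ± 5.08% and 30.7 ± 5.59%, that of Ifit3 42.5 ± 8.01% and 54.8 ± 5.72%, and that of Ifit3b 4.06 ± 0.16% and 8.998 ± 1.02%.

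A ratio within a library does not depend on its depth. The log2 ratio of Ifit1 to Ifit2 was higher with P16 shRNA than with nc shRNA by 4.73 in Cd31+ and 4.77 in Cd146+ cells, without overlap of the groups, and that of Ifit3 to Ifit2 by 2.89 and 3.36. The exact permutation test gave p = 0.1 for each, the smallest possible. This holds also for the P16 shRNA libraries 5 and 6 of Cd146+ cells, whose Ifit2 shares were 7.11 and 4.30%. Set beside the other constructs, the log2 ratio of Ifit1 to Ifit2 was 1.22 to 2.69 with P16 shRNA in Cd31+ cells. It overlapped there with empty vector (-1.87 to 1.71) and P16 (-0.64 to 2.57). In Cd146+ cells it was 2.24 to 2.99 with P16 shRNA, above empty vector (-0.79 to 0.53) and P16 (-2.57 to -0.28). The log2 ratio of Ifit3b to Ifit3 differed by -0.24 in Cd31+ cells (overlapping, exact permutation p = 0.2). In Cd146+ cells it was higher with P16 shRNA than with nc shRNA by 0.77, and it differed by -0.97 between P16 and empty vector and by -1.30 between nc shRNA and empty vector, each without overlap (exact permutation p = 0.1). The nc shRNA group had the lowest mean of this ratio in Cd146+ cells (-3.37) and empty vector the highest (-2.07). Across the 24 libraries there were 0.0945 to 0.466 Ifit3b reads for each Ifit3 read (median 0.196), with the highest value in the Cd146+ empty vector library 4.

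**Figure D4:**
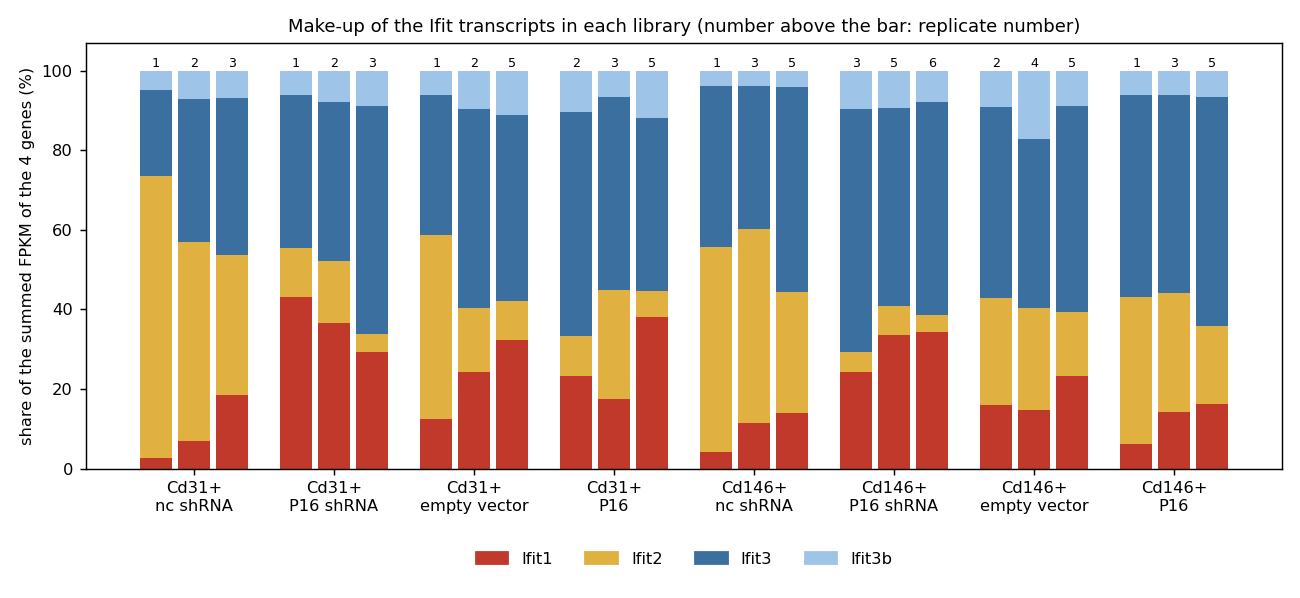
Share of each Ifit gene in the summed FPKM of the 4 genes, 1 bar for each of the 24 libraries with the replicate number above it. Ifit2 (yellow) takes 30.4 to 70.8% in the nc shRNA libraries and 4.30 to 15.7% in the P16 shRNA libraries.

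The same constructs were compared between the populations in a fit of all 24 libraries. The difference between P16 shRNA and nc shRNA was larger in Cd146+ than in Cd31+ cells by 1.07 ± 1.53 (Ifit1), 0.80 ± 0.86 (Ifit2), 0.88 ± 1.35 (Ifit3) and 1.89 ± 1.44 (Ifit3b) on the log2 scale. None of these reached an unadjusted p of 0.05 in the edgeR test (0.206 to 0.524), where 1.2% of 16524 genes did and 0% passed the adjustment. The signs rest on the number 3 libraries, without which in Cd146+ cells the values were -0.23, -0.73, -1.26 and -0.04. For P16 against empty vector the differences of differences were -1.74 ± 1.52, 0.05 ± 0.86, -0.84 ± 1.34 and -1.96 ± 1.41, again 0 of 4 beside 3.82% of genes unadjusted and 0% adjusted. Without the Cd146+ libraries numbered 3 they were -1.95, -0.10, -0.90 and -2.04.

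No Ifit gene was called between Cd146+ and Cd31+ cells within a construct. With nc shRNA the values were between -0.44 (Ifit3b) and 0.54 (Ifit3), with 0 of 4 members at an unadjusted p under 0.05 in the edgeR test beside 9.76% of genes, and 0 called beside 0.0363%. Without the Cd146+ library 3 they ran from -0.48 (Ifit3b) to 0.60 (Ifit3). With empty vector they were between -0.79 (Ifit1) and 0.20 (Ifit2), 0 of 4 beside 7.7% unadjusted and 0% adjusted. P16 shRNA gave 0.97 to 1.45, 0 of 4 beside 10.8% and 0%, and -0.49 to -0.70 without the Cd146+ libraries numbered 3. With P16, Ifit1 stood at -2.53 ± 1.12 (edgeR adjusted p = 0.820), the only one of the 4 at an unadjusted p under 0.05, beside 5.99% of genes unadjusted and 0% adjusted. Without the Cd146+ library numbered 3 it was at -2.74 and did not pass the unadjusted threshold.

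Other genes of the interferon pathway were described with lists by role, for P16 shRNA against nc shRNA. Counts are of genes at an unadjusted p under 0.05 in the edgeR test, and the shares of all genes are those given above, 9.51% higher and 10.3% lower in Cd31+ and 5.44% and 6.18% in Cd146+ cells. Of 19 interferon ligand genes none passed the filter on low counts, and the highest means over the 24 libraries were 0.111 CPM (Ifnz) and 0.0263 CPM (Ifnb1). Among 6 receptor genes, 1 was higher in Cd31+ (Ifnar2, 0.33 ± 0.11) and 0 in Cd146+ cells. The most abundant receptor, Ifnar1, stood at -0.14 ± 0.12 and -0.33 ± 0.19, and the interferon gamma receptor genes Ifngr2 at 0.03 ± 0.13 and 0.04 ± 0.15 and Ifngr1 at -0.06 ± 0.10 and -0.13 ± 0.21.

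Among the genes for kinases and for ISGF3, Stat2 (1.87 ± 0.43 in Cd31+ and 2.02 ± 0.55 in Cd146+ cells) and Irf9 (1.78 ± 0.39 and 2.00 ± 0.41) were higher in both populations. Jak1, the kinase with the highest level, was lower (-0.42 ± 0.11 and -0.48 ± 0.19), and Jak2 was at -0.08 ± 0.13 and -0.45 ± 0.39. Of 6 other interferon regulatory factors, 3 were higher and 1 lower in Cd31+ cells and 2 higher in Cd146+ cells. Irf7, which amplifies interferon production, had 3.43 ± 0.83 and 4.97 ± 0.83, whereas Irf3, which is activated by phosphorylation, had 0.03 ± 0.21 and 0.19 ± 0.27. Irf2 was at -0.33 ± 0.12 and -0.30 ± 0.20.

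The sensors of foreign nucleic acid were higher in 6 of 10 genes tested in Cd31+ and 4 of 11 in Cd146+ cells, and lower in none. Ddx58, which encodes RIG-I, had 1.52 ± 0.34 and 1.80 ± 0.58, while the adaptor Mavs (-0.15 ± 0.11 and -0.29 ± 0.16) and the kinase Tbk1 (-0.09 ± 0.09 and -0.16 ± 0.18) were near 0. In the negative feedback list, 3 of 5 genes tested were higher in each population. Adar, which edits double-stranded RNA, had 0.95 ± 0.26 and 1.13 ± 0.38, Socs3 0.49 ± 0.13 and -0.35 ± 0.37, and Samhd1 0.15 ± 0.19 and 0.29 ± 0.30.

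Of the other antiviral effectors, 13 of 17 tested were higher in Cd31+ cells (median 3.88) and 15 of 19 in Cd146+ cells (median 5.58), and none was lower. The medians of the Ifit genes were 3.74 and 5.11. Ifitm3, which restricts viral entry, had 1.08 ± 0.29 and 1.27 ± 0.26, Bst2, which tethers budding virions, 2.69 ± 0.73 and 3.38 ± 0.54, and Zc3hav1, which binds viral RNA, 0.26 ± 0.13 and 0.67 ± 0.37. Bst2 is also a marker of plasmacytoid dendritic cells. Of the 8 markers of dendritic and plasmacytoid cells, Bst2 and Tcf4 passed the filter, and Tcf4 was at -0.16 and -0.28 in the 2 populations. The sum of the 8, mostly Bst2 and Tcf4, was 65.6 to 149 CPM with nc shRNA and 163 to 429 CPM with P16 shRNA in Cd31+ cells, and 77.1 to 188 and 362 to 615 CPM in Cd146+ cells. Siglech, which defines plasmacytoid cells, had no count in 5 of the 8 groups. In Cd146+ cells it was counted with P16 shRNA and not with nc shRNA, and in Cd31+ cells with nc shRNA and not with P16 shRNA. Macrophage markers were higher at this threshold in 0 of 7 and 0 of 9 genes tested, with sums of 19.2 to 53.5 CPM with P16 shRNA and 17.2 to 46.9 CPM with nc shRNA in Cd31+ cells, and of 10.8 to 179 and 10.02 to 146 CPM in Cd146+ cells. Of the endothelial markers tested, 1 of 12 was lower at this threshold in Cd31+ cells, Mcam (-1.23 ± 0.34), and 0 of 12 in Cd146+ cells, and none was higher. Of 7 mesenchymal markers tested, Col3a1, a collagen gene, was higher in Cd31+ (0.89 ± 0.28) and Cd146+ cells (0.66 ± 0.25), and it did not pass without the Cd146+ libraries numbered 3 (0.69 ± 0.31). The mesenchymal sums were 20126 to 37377 CPM with nc shRNA and 24021 to 50575 CPM with P16 shRNA in Cd31+ cells, and 10775 to 26224 and 25217 to 30123 CPM in Cd146+ cells. The 5 cholangiocyte markers summed to 99.2 to 803 CPM with nc shRNA and 189.5 to 982 CPM with P16 shRNA in Cd31+ cells, and to 38.4 to 218 and 166 to 296 CPM in Cd146+ cells. Their medians were 0.143 and 1.203, and 0 of 4 tested passed the threshold in either population. The part of other cell types in the Ifit values was not tested. In bulk RNA, more cells of a type and more RNA per cell cannot be told apart.

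Without the Cd146+ libraries numbered 3, the counts were 15 of 19 for the other antiviral effectors (median 4.24), 4 of 11 for the sensors, 1 of 6 for other interferon regulatory factors, 1 of 5 for negative feedback, 0 of 6 for the receptors, 0 of 4 for cap methylation and 1 of 14 for eIF3. The threshold was still passed by Stat2 (1.19 ± 0.32), Irf9 (1.46 ± 0.27), Irf7 (3.92 ± 0.35), Ddx58 (1.24 ± 0.28), Ifitm3 (1.02 ± 0.26) and Bst2 (2.66 ± 0.42). It was no longer passed by Jak1 (-0.59 ± 0.28) and Adar (0.60 ± 0.31), while Jak2 passed it here (-0.94 ± 0.31). Between the controls, nc shRNA against empty vector, the other antiviral effectors had medians of -1.47 in Cd31+ and -1.24 in Cd146+ cells. At an unadjusted p under 0.05 in the edgeR test, 3 of 16 and 4 of 15 tested were lower and 0 higher. The shares of all genes in either direction were 3.16% and 3.99%. These Cd146+ values include the nc shRNA library 3. The part of the low control in the P16 shRNA differences was not tested.

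Enzymes of cap methylation and subunits of eIF3 were listed for their known ties to Ifit proteins. Of the cap methylation enzymes, the 2′-O-methyltransferases write the mark whose absence Ifit1 senses, whereas Rnmt and its activator Ramac serve N7 methylation. Rnmt, the cap guanine-N7 methyltransferase, was higher (0.56 ± 0.09 in Cd31+ cells, edgeR adjusted p = 0.0383, the only gene of these lists that passed it, and 0.59 ± 0.18 in Cd146+ cells, adjusted p = 0.385). Without the Cd146+ libraries numbered 3 it was at 0.56 ± 0.24 and did not pass the unadjusted threshold. Its activator Ramac had -0.18 ± 0.12 and -0.21 ± 0.16, and Cmtr2, a 2′-O-methyltransferase, -0.07 ± 0.18 and -0.02 ± 0.24. Of the 14 genes for subunits of the initiation factor eIF3, to which Ifit proteins can bind, 2 were higher in Cd31+ and 1 in Cd146+ cells. The most abundant, Eif3a, Eif3c and Eif3b, had 0.10 ± 0.12, -0.22 ± 0.14 and 0.33 ± 0.10 in Cd31+ cells and -0.21 ± 0.22, 0.14 ± 0.18 and 0.33 ± 0.17 in Cd146+ cells.

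The cluster also holds Ifit1bl1 and Ifit1bl2 on the minus strand. Ifit1bl1 had 0.340, 0.186 and 0.506 CPM with nc shRNA and 4.13, 1.80 and 8.73 CPM with P16 shRNA in Cd31+ cells, and 1.47, 0.793 and 0.694 CPM against 35.3, 4.61 and 2.35 CPM in Cd146+ cells. The groups were apart in both populations (3.83 ± 0.70 with an adjusted p of 0.0599 and 3.82 ± 1.11 with an adjusted p of 0.384 in the edgeR test). Ifit1bl2 was tested in Cd146+ cells only (2.04 ± 0.91, edgeR adjusted p = 0.441). Without the Cd146+ libraries numbered 3, Ifit1bl1 was at 1.68 ± 0.65 and Ifit1bl2 at 0.52 ± 0.76, and the median of the pair went from 2.93 to 1.10. Since 7.06% of the 50-base words of Ifit1 were found in Ifit1bl2, these rows may share some reads. Of the genes that flank the cluster, Lipa (0.51 ± 0.15 and -0.34 ± 0.45), Kif20b (0.20 ± 0.17 and 0.41 ± 0.35), Ch25h (0.71 ± 0.48 and 0.67 ± 0.35), itself known as an interferon-stimulated gene, and Pank1 (-0.32 ± 0.19 and -0.38 ± 0.37) gave 1 of 4 at an unadjusted p under 0.05 in Cd31+ and 0 of 4 in Cd146+ cells.

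Across the 24 libraries, the log2 CPM of Ifit1, Ifit3 and Ifit3b correlated with each other (Pearson's r 0.94 for Ifit1 with either gene and 0.96 for Ifit3 with Ifit3b). With the mean of each group taken out, r was still 0.90, 0.88 and 0.97, so that libraries of 1 group differed in the same direction for these genes. Ifit2 correlated with Ifit1, Ifit3 and Ifit3b at 0.39, 0.57 and 0.52, but its Spearman's rho was 0.05, 0.02 and 0.07, and without the 2 P16 shRNA libraries numbered 3 its r was -0.25, -0.22 and -0.21. With group means taken out, over all 24, it was 0.46, 0.67 and 0.67. These are descriptions over libraries that share populations, constructs and numbered cultures, and Ifit3 and Ifit3b may share reads.

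The genes with profiles most like the mean of the 4 members were sought among the 16524 genes tested in all libraries, by Pearson's r of log2 CPM over the 24 libraries. The first 10 were Ifi35 (0.98), Igtp (0.97), Irf9 (0.97), Irgm2 (0.97), Dhx58 (0.96), Xaf1 (0.96), Irf7 (0.95), Stat2 (0.95), Rsad2 (0.95) and Ddx58 (0.95). Ifit2 itself had 0.58. With group means taken out, Irf9, Igtp, Ifi35, Irgm2 and Irf7 came first (0.94 to 0.96). All 10 are known interferon-stimulated genes, among them Igtp and Irgm2, immunity-related GTPases, Dhx58, which encodes the sensor LGP2, and Rsad2, which encodes viperin. In all, 50 genes had r over 0.9.

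**Figure D5:**
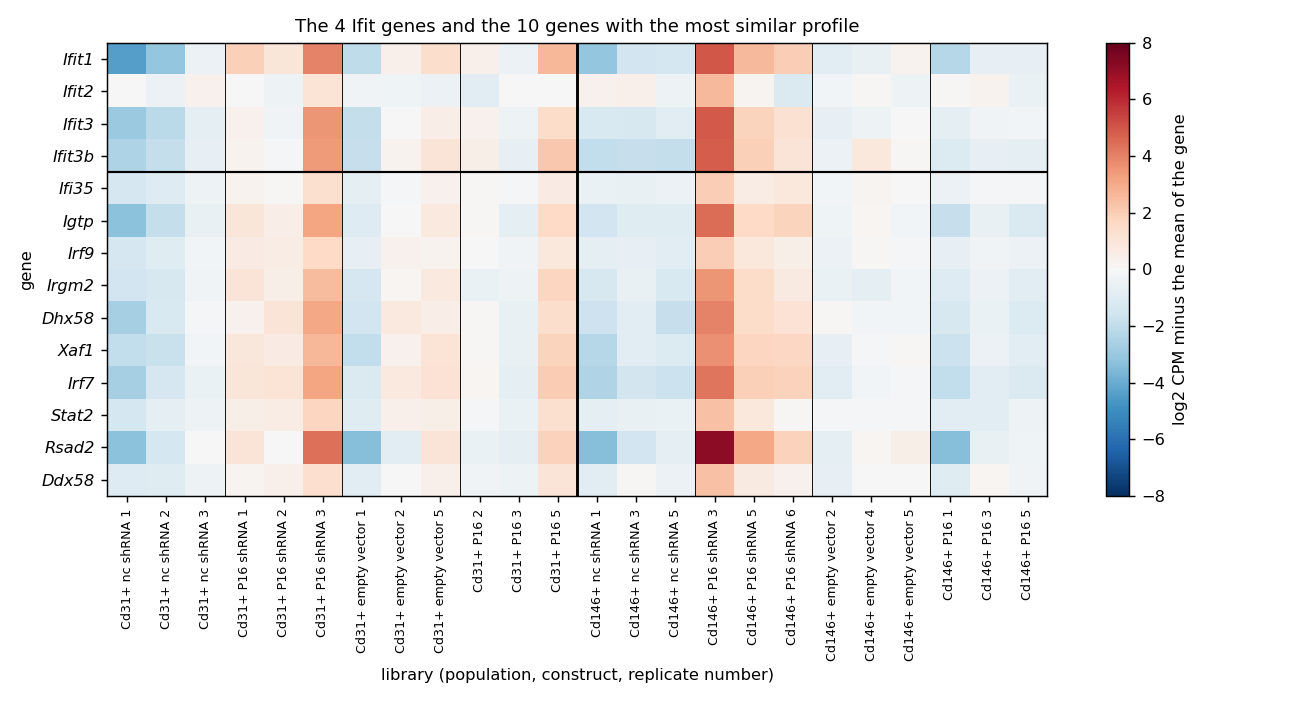
Log2 CPM of the 4 Ifit genes and of the 10 genes with the most similar profile in each of the 24 libraries, minus the mean of the gene. Red is above and blue below the mean. Ifit1, Ifit3, Ifit3b and the 10 other genes share the high P16 shRNA libraries numbered 3. They lie below their means in the nc shRNA libraries, except for Ddx58 in the Cd146+ library 3, and Rsad2 in the Cd31+ library 3 is close to its mean. The row of Ifit2 departs by more than 1 log2 unit from its mean only in the 2 P16 shRNA libraries numbered 3 and, downward, in the Cd146+ P16 shRNA library 6.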

How the data were processed

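The authors deposited raw read counts per gene, without normalization, for 24 libraries. The FPKM values are also as deposited by the authors and were used only for shares within the family. Per the labels, RNA was poly-A selected, and fastp and the build mm9 are named. The aligner, the counter and the strand setting are not given in the sources used here. The log2 fold change, p-value and adjusted p-value of the authors' own comparisons (20 columns) were not used.

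Counts were analysed with R 4.3.3 and edgeR 4.0.16 (filterByExpr, TMM, robust quasi-likelihood fit, two-sided test, Benjamini-Hochberg adjustment over all genes tested). Constructs were compared over the 6 libraries of 2 groups, and populations over 24 libraries. Log2 CPM used a prior count of 2. DESeq2 1.42.0 was an alternative, beside no filter, DESeq2's size factors, all 12 libraries, the replicate block, Ifit3 and Ifit3b summed, a Y-linked term, and each library left out. The fit without the Cd146+ libraries numbered 3 was added after their low endothelial markers were seen. Exact permutation tests used scipy 1.17.1, and alignments Biopython 1.88. The fits were also run on simulated counts, which had no shared numbers and less spread than Ifit1, Ifit3 and Ifit3b with P16 shRNA. That run does not show how the fits behave for these genes. The members, gene lists and tests were chosen with earlier results of these data known, and the genes named are the members, the cluster and its neighbours, the 3 most abundant tested genes of each pathway list with any past the adjusted threshold, the 10 most similar profiles, and, chosen after their values were seen, Ifnz, Ifnb1, Ifnar2 and the named cell type markers. The result of 1 gene of the pathway lists is not reported here.

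Replicate numbers come from the labels. The deviations of log2 CPM from the group means were compared between libraries. For a shared number, Pearson's r had a median of 0.516 over 13 Cd31+ pairs (0.343 at the lowest) and of 0.696 over 10 Cd146+ pairs (0.373 at the lowest). Different numbers gave -0.161 and -0.0677. Between populations the median was 0.104 (27 pairs, lowest -0.0475). The numbers were taken to pair libraries within a population.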

Additional observations from a re-analysis of the deposited data

How the results depend on the processing

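Over 48 combinations of member and comparison, 628 alternatives were fitted. Of those that left out 1 library, 307 kept the direction and the side of the adjusted threshold and 29 changed the sign. Of the others, 259 kept both, 15 kept the direction and passed the threshold, and 18 changed the sign. The cause was not tested.

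Where the fit without replicate numbers called 0 members, P16 shRNA against nc shRNA called 2 in Cd31+ and 3 in Cd146+ cells with DESeq2, 1 and 2 with the replicate block in 12 libraries, and 3 in Cd31+ cells with the block in 6. The comparison of nc shRNA with empty vector called 3 with the block in 6 Cd31+ libraries and 1 with DESeq2 in Cd146+ cells. The block changed no other call, and no alternative called a member in P16 against empty vector or between populations.

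Under the block, Ifit2 went to -0.17 (12 libraries) and -0.076 (6 libraries) in P16 against empty vector in Cd31+ cells, to -0.41 in Cd146+ cells, to -0.25 in nc shRNA against empty vector in Cd146+ cells, and to -0.24 in the difference between populations with P16. Ifit3b in Cd146+ against Cd31+ cells with empty vector went to -0.49 under the block and to -0.0051 without the filter. With the Y-linked term, Ifit3 went to 0.11 in P16 against empty vector in Cd146+ cells.

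Without the Cd146+ libraries numbered 3, P16 shRNA against nc shRNA of Ifit2 went to -0.33. The difference between populations in that comparison went to -0.23 (Ifit1), -0.73 (Ifit2), -1.26 (Ifit3) and -0.037 (Ifit3b), and that in P16 against empty vector of Ifit2 to -0.10. Cd146+ against Cd31+ cells with P16 shRNA went to -0.49 (Ifit1), -0.70 (Ifit2), -0.66 (Ifit3) and -0.52 (Ifit3b).

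With 1 library left out, P16 shRNA against nc shRNA of Ifit2 ranged from -0.18 to 0.68 in Cd31+ and from -0.47 to 1.64 in Cd146+ cells. In P16 against empty vector, Ifit1 ranged from -0.46 to 1.86, Ifit2 from -0.037 to 0.37 and Ifit3b from -0.25 to 1.58 in Cd31+ cells, and Ifit3 from -0.20 to 0.18 in Cd146+ cells. The difference between populations ranged for P16 shRNA from -0.86 to 2.36 (Ifit1), -0.87 to 1.37 (Ifit2), -1.20 to 2.99 (Ifit3) and -0.076 to 3.83 (Ifit3b), and for P16 from -0.20 to 0.23 (Ifit2). Cd146+ against Cd31+ cells ranged with nc shRNA from -0.57 to 1.84 (Ifit1) and -0.76 to 0.27 (Ifit3b), with empty vector from -1.29 to 0.071 (Ifit1), -0.64 to 0.32 (Ifit3) and -0.47 to 0.71 (Ifit3b), and with P16 shRNA from -0.49 to 2.31 (Ifit1), -0.70 to 1.56 (Ifit2), -0.66 to 3.55 (Ifit3) and -0.52 to 3.41 (Ifit3b). Leaving out 1 library called 0 members in every comparison.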
